A study of Mus musculus with 24 samples.

Results

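Bcl11a and Bcl11b are paralogous mouse genes whose surroundings were examined for peaks of 3 transcriptional regulators (TRs), ARID1B, FOXP1, and TCF7L2, in the embryonic cortex. A peak was counted when it overlapped the body of either gene, as annotated in GENCODE vM21 on GRCm38, or the 500 kb on either side, and this gave 637 of the 314954 peaks in 6 peak lists, 254 around Bcl11a and 383 around Bcl11b. The lists came from chromatin immunoprecipitation sequencing (ChIP-seq) of wild-type (WT) mouse cortex on a CD1 background, taken at E15.5 or E18.5 (embryonic days), with no treatment and no altered allele. Each TR and stage had 2 ChIP and 2 input libraries, 24 in all, but the lists used here were called on merged replicates, 1 list per TR and stage, and peaks called per replicate were not analysed here. No difference between these lists could therefore be set against the spread between replicates, and the intervals given here cover counting error only. The labels name the third TR TCF4, whereas the antibody in the study's methods was raised against TCF7L2, and TCF7L2 is used here. The cortex is a mixture of progenitors, neurons and other cells, so a lower peak in bulk tissue cannot be told apart from fewer cells that carry it. Peaks of BCL11A and TBR1 were not used here.

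BCL11A and BCL11B (also known as CTIP1 and CTIP2) are zinc-finger transcription factors that associate with the BAF chromatin remodelling complex. In the developing cortex, BCL11B is best known for its role in corticospinal neurons of the deep layers, and BCL11A for the specification and migration of projection neurons. ARID1B is a DNA-binding subunit of the BAF complex, FOXP1 is a forkhead transcription factor, and TCF7L2 is a nuclear effector of Wnt signalling. Many developmental transcription factors, these paralogs among them, lie beside long stretches without other protein-coding genes, called gene deserts, which often hold their distal enhancers.

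Bcl11a (ENSMUSG00000000861.15) lies on the plus strand at chr11:24078056-24174123 and has 6 annotated transcription start sites (TSSs). Downstream of it, the next protein-coding gene, 5730522E02Rik, is 1428.6 kb away, a gap longer than 99.1% of the 19075 gaps between neighbouring protein-coding genes, whose median is 16.8 kb. Upstream, A830031A19Rik starts only 3001 bp away. Bcl11b (ENSMUSG00000048251.15) lies on the minus strand at chr12:107910403-108003602 with 2 TSSs. Its downstream gap, to 3110018I06Rik, is 420.8 kb, with Vrk1, a nuclear kinase gene, next at 1833 kb. Its upstream neighbour Setd3, which encodes an actin histidine methyltransferase, is 102.8 kb away. Distances from here on run from the first TSS of each gene along its own strand, with negative values upstream.

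Sequences are shown for 6 places on which the results below turn. They were read from the RefSeq GRCm38.p6 genome on the strand of the gene, 5′ to 3′, and each is 200 bases around a summit apart from the guide site, which is 100 bases. Capitals mark the guide's target in the second sequence and, in the others, matches to CATCTG or its reverse complement CAGATG, a core E-box. The first 2 come from the desert downstream of Bcl11a (chr11:24371692-24371891 and chr11:24371452-24371551, plus strand), where FOXP1 had its tallest peak of both windows.
Bcl11a +294 kb, FOXP1 E15.5 summit: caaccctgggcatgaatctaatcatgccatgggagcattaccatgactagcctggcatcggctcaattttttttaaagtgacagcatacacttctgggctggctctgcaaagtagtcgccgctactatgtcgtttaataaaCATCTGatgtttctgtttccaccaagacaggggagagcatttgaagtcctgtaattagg
Bcl11a +293 kb, guide site: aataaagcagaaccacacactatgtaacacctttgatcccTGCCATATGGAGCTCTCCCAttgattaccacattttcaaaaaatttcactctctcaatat
The third lies at chr11:24049377-24049576 in the coding sequence of A830031A19Rik and carried the tallest FOXP1 and TCF7L2 peaks outside promoters around Bcl11a at E18.5. The fourth, at chr11:24631711-24631910 in an intron of the long noncoding RNA Gm12068, carried the tallest ARID1B peaks around Bcl11a.
Bcl11a -29 kb: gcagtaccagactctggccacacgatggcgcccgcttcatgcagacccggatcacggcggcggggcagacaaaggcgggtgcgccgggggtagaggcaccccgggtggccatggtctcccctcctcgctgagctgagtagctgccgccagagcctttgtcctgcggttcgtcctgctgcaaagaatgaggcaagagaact
Bcl11a +554 kb: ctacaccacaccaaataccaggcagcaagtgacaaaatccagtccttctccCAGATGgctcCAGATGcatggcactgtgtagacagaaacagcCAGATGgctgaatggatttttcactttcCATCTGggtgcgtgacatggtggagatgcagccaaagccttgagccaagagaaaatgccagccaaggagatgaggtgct
The fifth is the FOXP1 summit in the Bcl11b promoter (chr12:108004431-108004630, minus strand). The sixth (chr12:108078519-108078718, minus strand, intergenic) held the tallest ARID1B peaks outside promoters around Bcl11b.
Bcl11b promoter, FOXP1 E15.5 summit: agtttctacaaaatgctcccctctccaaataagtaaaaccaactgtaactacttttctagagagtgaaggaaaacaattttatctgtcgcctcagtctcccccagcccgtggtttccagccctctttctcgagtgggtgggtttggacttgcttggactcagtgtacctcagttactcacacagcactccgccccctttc
Bcl11b -75 kb: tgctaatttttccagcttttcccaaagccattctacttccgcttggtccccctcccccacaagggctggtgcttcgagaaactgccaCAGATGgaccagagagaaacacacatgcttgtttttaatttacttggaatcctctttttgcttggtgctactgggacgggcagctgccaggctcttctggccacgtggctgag

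The 6 lists differed in depth. MACS2 had been run with a constant background, so the number of reads over each summit could be recovered from the listed fold enrichment, which is the scaled read pileup plus 1 over the background plus 1. The background, on the scaled pileup, was 6.13 to 8.63 reads per summit in 5 lists and 2.81 reads in FOXP1 E18.5. That list also had the fewest peaks (24872, against 32992 to 71411). Its low background was set by the input, not by the ChIP alone. The ChIP reads of FOXP1 E18.5 were scaled by 0.561 to the smaller input of 26.3 M reads. Its ChIP library held 46.9 M reads, against 57.3 M to 94.3 M in the other lists. The lowest fold enrichment listed was 3.21 in FOXP1 E18.5 and 2.33 to 2.66 in the other 5 lists, so a weak FOXP1 site was harder to list at E18.5. Local input depth was not subtracted.

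The first question was whether the 3 TRs bound the promoters of both genes. A proximal peak, here a peak overlapping the 2000 bp upstream of any TSS, was present at Bcl11a in 6 of 6 lists and at Bcl11b in 6 of 6 lists. Such peaks were common, since 58.8% (ARID1B), 61.8% (FOXP1), and 57.3% (TCF7L2) of 21951 protein-coding genes had a proximal peak at E15.5. At E18.5 the shares were 57.3%, 55%, and 61.2%, and 51.8% of genes had a proximal peak in all 6 lists, so the presence of a peak did not set these genes apart.

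At the Bcl11a promoter TCF7L2 had the highest fold enrichments, although its intervals overlapped those of FOXP1 and of ARID1B at both stages. It was at 9.11 (95% Poisson interval 7.32 to 11.2) at E15.5 and 8.21 (6.47 to 10.3) at E18.5. These peaks ranked above 88.2% and 74.6% of the genes that had such a peak in the same list. That is the denominator of every promoter rank given here, and ranks and percentiles of peaks are by p-value throughout. ARID1B was at 5.79 (4.48 to 7.37) and 5.61 (4.03 to 7.62), above 63.8% and 47.0%. FOXP1 was at 7.97 (6.14 to 10.2) and 5.56 (3.97 to 7.60), which was above only 30.8% and 14.1%. Thus, among genes with a proximal peak, TCF7L2 ranked high and FOXP1 low at this promoter, and the intervals of the 2 stages overlapped for every TR. The FOXP1 E15.5 peak was 7524 bp wide and ran from the promoter into the gene, whereas FOXP1 E18.5 had 5 separate proximal peaks covering 2684 bp. Because A830031A19Rik lies so close, it shared these proximal peaks. A further TSS inside the gene, 63.6 kb downstream, had a proximal peak in ARID1B E18.5 alone, at 3.37-fold.

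At the Bcl11b promoter, FOXP1 at E15.5 stood out instead. It reached a fold enrichment of 29.0 (25.4 to 33.0), from 228 reads at the summit, above 97.8% of genes with a proximal peak in that list, and ranked 230 of 19576 proximal FOXP1 peaks. FOXP1 E18.5 reached 5.71 (4.10 to 7.77) from 37 reads, above 14.1% of such genes. ARID1B was at 3.66 (2.64 to 4.95) and 4.49 (3.09 to 6.31), above 12.2% and 20.6%, and TCF7L2 at 5.04 (3.74 to 6.66) and 6.57 (5.03 to 8.44), above 24.2% and 48.7%. The FOXP1 E15.5 peak therefore stood apart from the other 5, whose intervals all ended below 9. Taller ARID1B peaks lay just beyond the promoter, about 2.8 kb upstream of the TSS, at 6.95-fold (5.51 to 8.66) at E15.5 and 8.42-fold (6.44 to 10.8) at E18.5. TCF7L2 had a separate peak there at E15.5, at 7.34-fold (5.74 to 9.25), its tallest distal peak of this window, while its E18.5 promoter peak was 5004 bp wide with the summit at that upstream place, at -2922 bp from the TSS. With peaks limited to a −log10 p of at least 15, Bcl11b had a proximal peak in 3 of 6 lists and Bcl11a in 5. The share of all genes that kept such a peak was not counted, so these counts do not set either gene apart.

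**Figure D1:**
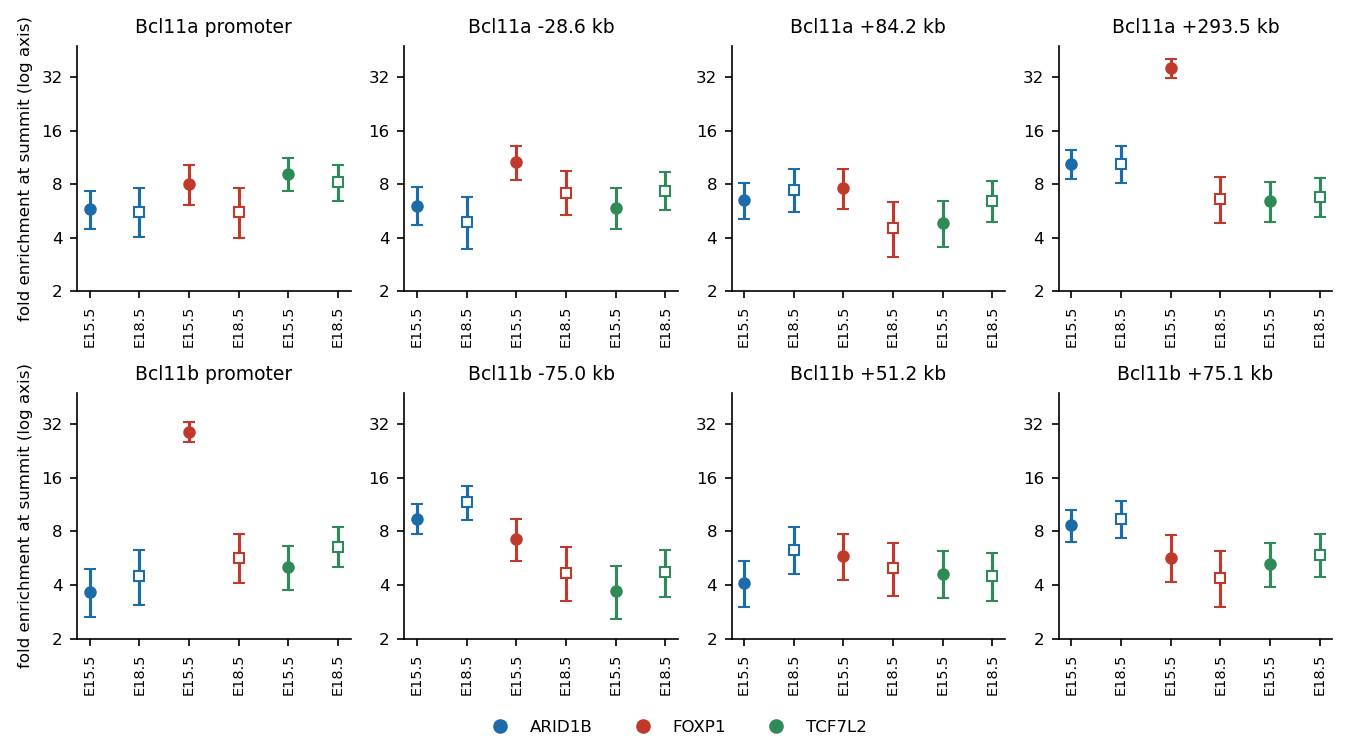
Fold enrichment at the summit (log axis) in each of the 6 peak lists at the promoters and at 3 distal loci of each gene. Filled circles are E15.5, open squares are E18.5, colours are TRs, and bars are 95% Poisson intervals; FOXP1 E15.5 lies at 35.7 at the Bcl11a +293.5 kb locus and at 29.0 at the Bcl11b promoter, above every other point.

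Among other protein-coding genes, the 6 promoter heights most like those of Bcl11b, by Euclidean distance between percentiles among genes with a peak (0 for a list without one), were those of Hus1, Commd2, and Man2b1, at distances of 19.5, 22.8, and 24.1 percentile points. For Bcl11a they were A830031A19Rik, at 0 because it shares the peaks, then Socs1 at 15.3 and 2700081O15Rik at 17.5.

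A list of 9 genes for cortical projection neuron regulators known to act with Bcl11a or Bcl11b was read beside them. Of these, 8 had a proximal peak in all 6 lists, beside 51.8% of all protein-coding genes, and Fezf2, which specifies subcerebral neurons, had one in 5, lacking FOXP1 E18.5. Each gene was then given the median of its 6 promoter percentiles among genes with a peak. Over the 9 genes this ran from 30.2 for Zfpm2 (a GATA cofactor) to 90.4 for Tle4 (a corepressor of corticothalamic neurons). For the 8 genes with a peak in every list it had a median of 56.6, beside 55.6 for all 11376 such genes. Bcl11a was at 56.8 and Bcl11b at 23.6. At E15.5 the FOXP1 proximal peak of Bcl11b, at 29.0-fold, was taller than that of every gene on this list, the next being Ski (a transcriptional corepressor) at 19.6-fold, followed by Tbr1 (a deep-layer transcription factor) at 13.9-fold.

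The next comparison concerned distal peaks, those overlapping no promoter of any gene. Bcl11a had 201 in the 6 lists, more than the windows of 86.5% of protein-coding genes per megabase, and Bcl11b had 332, more than 98.3%. Per megabase, these came to 183 and 304, beside a median of 79.8 over all genes. Bcl11b lay above 91.6% to 99.4% of genes in each list, with FOXP1 E18.5 lowest and ARID1B E15.5 highest. Bcl11a lay above 61.9% (FOXP1 E18.5) to 93.1% (ARID1B E18.5). Windows of neighbouring genes share peaks, so these ranks are descriptions. Counted by the nearest TSS of a gene, 50 distal peaks were nearest to Bcl11a and 124 to Bcl11b, more than for 98.7% and 99.9% of genes, whose median was 0.

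**Figure D2:**
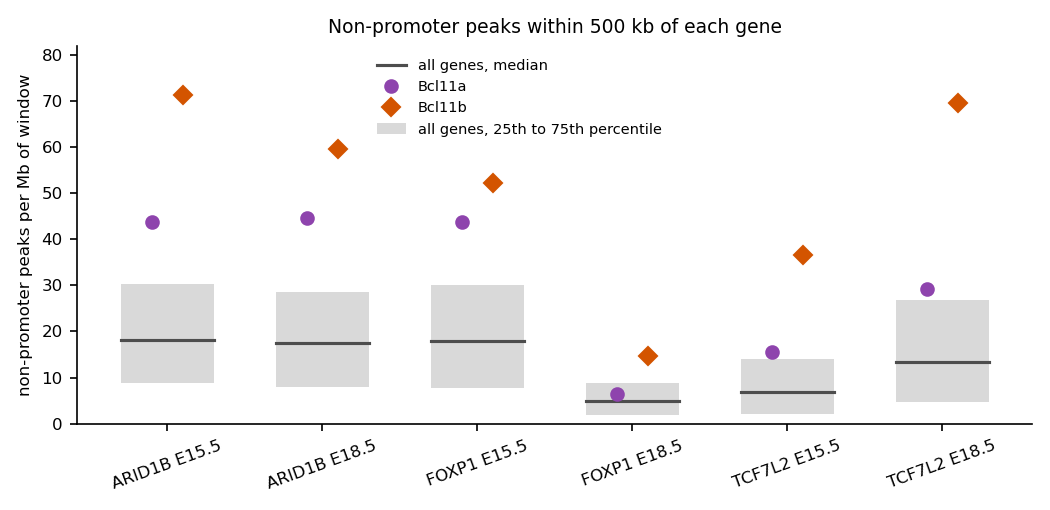
Distal peaks per megabase within 500 kb of each gene, for each peak list. Gray bars span the 25th to 75th percentile of 21951 protein-coding genes with the median as a line; Bcl11b (diamonds) lies above the bar in all 6 lists and Bcl11a (circles) in 5, with FOXP1 E18.5 inside it.

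Within both windows the gene body was the densest part. The Bcl11a body held 96 distal peaks, 99.9 per 100 kb summed over the lists, beside 7.58 per 100 kb for the genome, a ratio of 13.2. The Bcl11b body held 108, 116 per 100 kb, a ratio of 15.3. The summit was in an exon in 11 of 96 Bcl11a peaks, in a body with 13.2 kb of exon and 82.9 kb of intron, and in 3 of 108 Bcl11b peaks, with 8.11 kb of exon and 85.1 kb of intron. By TR, the ratio to the genome ranged from 5.15 (FOXP1 E18.5) to 15.3 (FOXP1 E15.5) for the Bcl11a body, and from 11.8 (ARID1B E18.5) to 24.5 (TCF7L2 E15.5) for the Bcl11b body.

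The flanks differed between the paralogs. Upstream of Bcl11b there were 182 distal peaks, 36.4 per 100 kb and 4.80 times the genome's density, and this flank was above the genome in all 6 lists, by 3.74 to 7.18 times. It runs through Setd3, Ccnk (cyclin K), Ccdc85c (an apical junction protein gene), Hhipl1, Cyp46a1 (cholesterol 24-hydroxylase), and Eml1 (a microtubule-associated protein gene). Upstream of Bcl11a there were 41, 8.2 per 100 kb, close to the genome at 1.08 times. The downstream flank of Bcl11a, which lies within its desert, held 64 peaks (12.8 per 100 kb, 1.69 times). That of Bcl11b, which runs past the desert over 3110018I06Rik, held 42 (8.4 per 100 kb, 1.11 times). FOXP1 E18.5 had 0 distal peaks in the Bcl11b downstream flank, beside a genome density of only 0.404 per 100 kb for that list.

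Taken over its whole length, the desert downstream of Bcl11a held 164 distal peaks, or 11.5 per 100 kb, more than 86.8% of the 906 gaps of at least 400 kb between protein-coding genes. The Bcl11b desert held 42, or 9.98 per 100 kb, more than 84.3% of them. The median of such gaps was 3.25 per 100 kb. Both deserts were therefore richer in peaks than most gaps of their kind, although less dense than the gene bodies beside them.

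**Figure D3:**
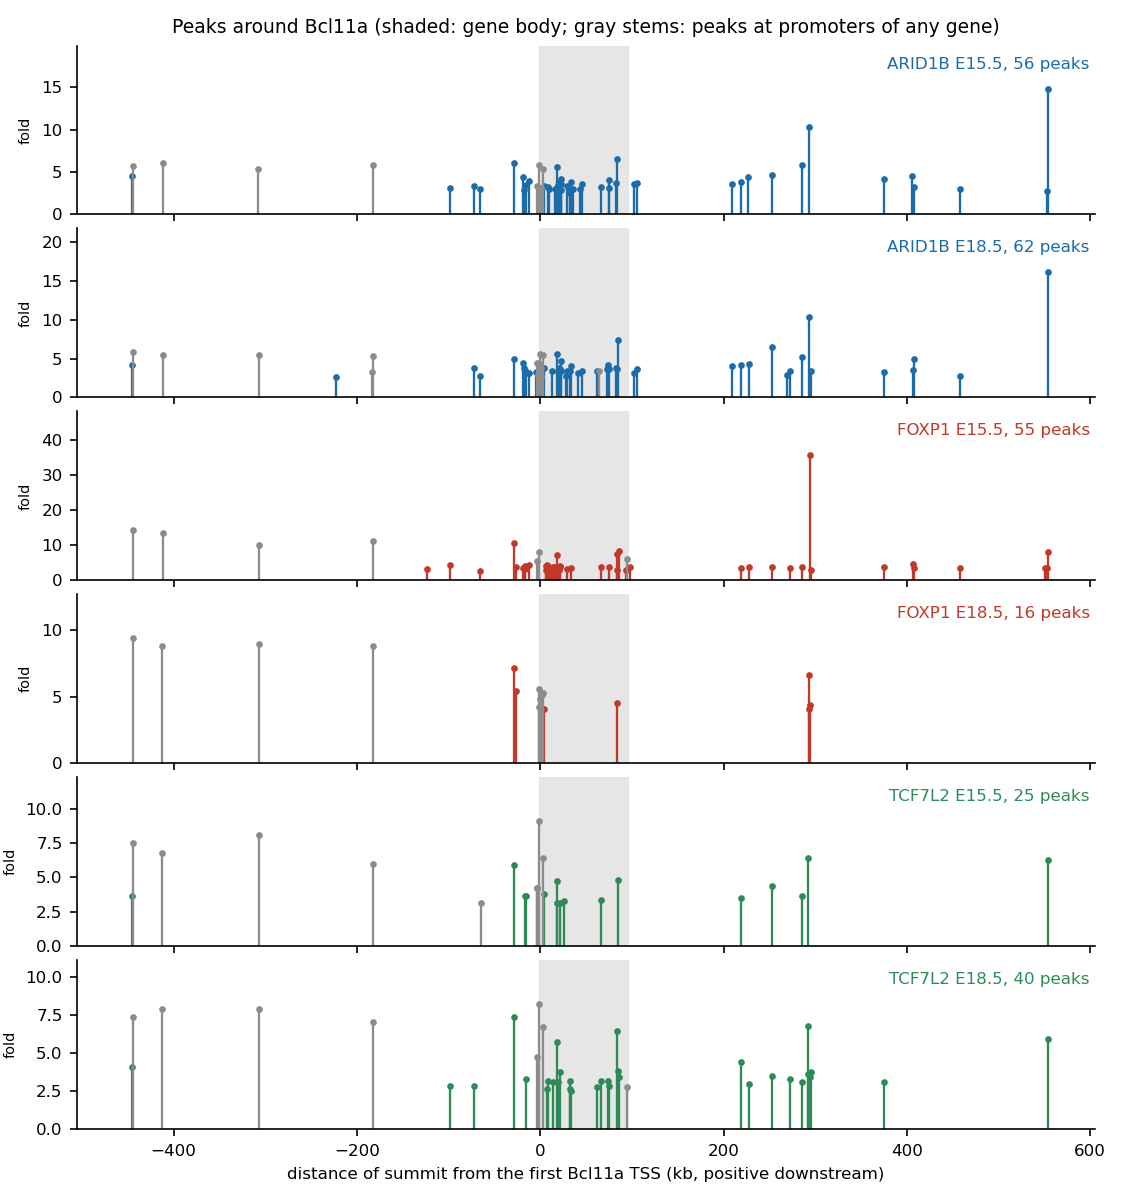
Peaks around Bcl11a by list, as fold enrichment (each panel has its own vertical scale) against distance of the summit from the first TSS in kb. Coloured stems are distal peaks, gray stems proximal peaks of any gene, and shading the gene body; the FOXP1 E15.5 peak near +294 kb reaches 35.7 and the ARID1B peaks near +554 kb reach 14.8 and 16.1.

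Within the window, the tallest peak of the Bcl11a desert stood at the +293.5 kb locus (chr11:24369607-24373583, intergenic), which held peaks in all 6 lists. FOXP1 E15.5 reached a fold enrichment of 35.7 (31.7 to 40.1) there, from 281 reads, and ranked 2 among 44483 distal FOXP1 E15.5 peaks, of which the tallest was at 38.7. FOXP1 E18.5 was at 6.59 (4.84 to 8.79), from 43 reads. ARID1B was at 10.3 (8.54 to 12.4) and 10.4 (8.17 to 13.0), and TCF7L2 at 6.40 (4.91 to 8.20) and 6.79 (5.22 to 8.69), so that FOXP1 alone differed between the stages beyond counting error. The 6 summits spread over 1304 bp. Its sequence is the first one printed above.

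Relative to each library's background, the summit height of FOXP1 at this locus was 4.75 times as high at E15.5 as at E18.5 (exact binomial 95% interval 3.43 to 6.71). This was the highest of 8763 distal loci with a FOXP1 peak at both stages, whose median ratio was 1.02. ARID1B and TCF7L2 had ratios of 0.958 (0.708 to 1.30) and 0.965 (0.664 to 1.40). The Bcl11b promoter locus had a FOXP1 ratio of 4.48 (3.15 to 6.52), higher than 99.98% of 12965 proximal loci, whose median was 1.09. There ARID1B was at 0.793 (0.558 to 1.13) and TCF7L2 at 1.15 (0.799 to 1.65), both over the whole locus including the peaks 2.8 kb upstream. At the Bcl11a promoter the FOXP1 ratio was 1.25 (0.817 to 1.94). Both loci were also wide in FOXP1 E15.5. The +293.5 kb peak spanned 3029 bp, wider than 99.92% of distal peaks (median 374 bp), and the Bcl11b promoter peak 4812 bp, wider than 99.84% of proximal peaks (median 952 bp). These contrasts rest on 1 merged library pair per stage, and whether the input reads were in excess at either place was not tested.

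**Figure D4:**
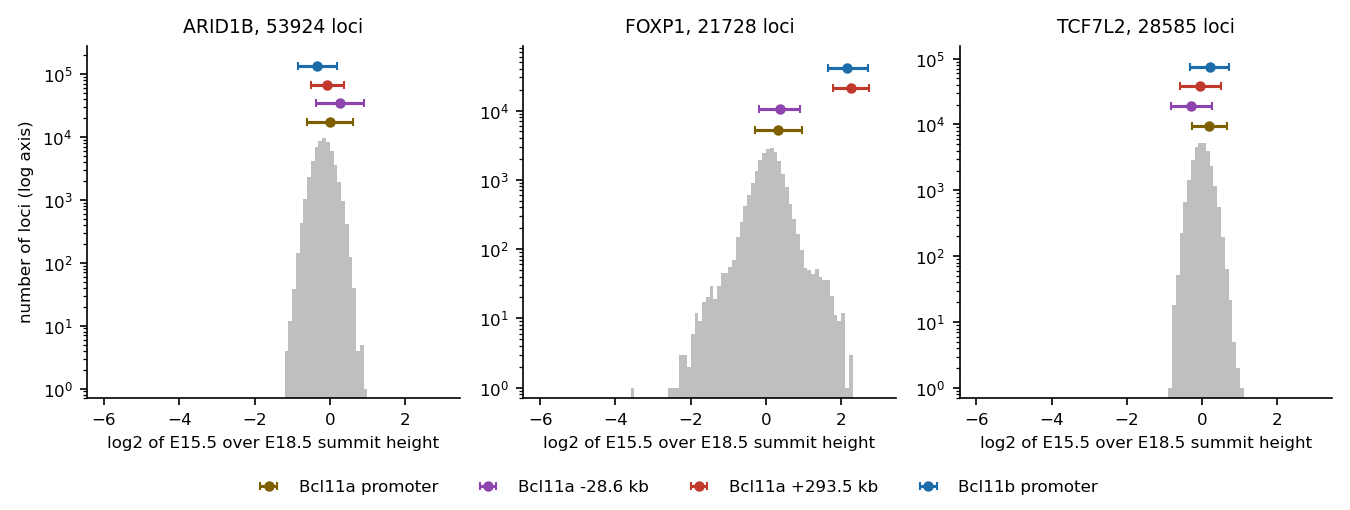
Number of loci (log axis) by the log2 ratio of E15.5 over E18.5 summit height, for all loci where a TR had a peak at both stages. Points with 95% binomial intervals, set above the histograms, mark 4 loci; the Bcl11a +293.5 kb locus and the Bcl11b promoter lie at the right edge of the FOXP1 histogram and near the middle for ARID1B and TCF7L2.

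The +293.5 kb locus also held the site of a guide RNA. In CRISPR interference, a guide directs a catalytically dead Cas9 fused to a repressor to a chosen site. A guide of 20 bases, listed in the study under the Bcl11a TSS, matched GRCm38 at 1 place, chr11:24371492-24371511 on the minus strand, with GGG as its adjacent motif. That place is not the TSS: the site, in capitals in the second sequence above, is 293.4 kb downstream of the first TSS and lies under a peak in 6 of 6 lists. The interval listed beside it overlaps neither place and lies over the -28.6 kb locus, which is likewise under peaks in 6 of 6 lists. In the study, CRISPR interference directed at a distal enhancer element downstream of the BCL11A TSS lowered Bcl11a RNA in cultured mouse cortical cells. Which guide was used there was not established here. The study also cloned the human form of that element to make a transgenic line, while the ChIP-seq cortices were labelled WT. Whether DNA of that element was among the reads here was not tested.

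The -28.6 kb locus (chr11:24049124-24050025), in the coding sequence of A830031A19Rik, had the tightest summits among the 3 distal Bcl11a loci in all 6 lists, within 87 bp. Its fold enrichments were 6.06 (4.72 to 7.67) and 4.91 (3.44 to 6.80) for ARID1B at E15.5 and E18.5. FOXP1 was at 10.6 (8.49 to 13.1) and 7.18 (5.34 to 9.46), and TCF7L2 at 5.88 (4.46 to 7.61) and 7.33 (5.70 to 9.30). No TR differed between stages here beyond counting error, with ratios of 1.20 (0.782 to 1.87), 1.28 (0.887 to 1.88), and 0.818 (0.561 to 1.19). The third such locus, at +84.2 kb (chr11:24161256-24162931) in a Bcl11a intron, had its summits within 144 bp. ARID1B was there at 6.50 and 7.43, FOXP1 at 7.59 and 4.53, and TCF7L2 at 4.83 and 6.46. Its neighbour at +86.0 kb, over Bcl11a coding sequence (chr11:24163214-24164956), had the tallest FOXP1 peak found at E15.5 only around Bcl11a, at 8.48 (6.59 to 10.8).

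ARID1B had its own tallest place, the +553.8 kb locus (chr11:24631035-24632278). There it reached 14.8 (12.6 to 17.2) at E15.5 and 16.1 (13.3 to 19.3) at E18.5, ranked 209 of 52196 and 230 of 49536 distal ARID1B peaks. FOXP1 was at 7.97 (6.14 to 10.2) at E15.5 and had no listed peak at E18.5, and TCF7L2 was at 6.29 (4.82 to 8.08) and 5.91 (4.46 to 7.70). The 5 summits lay within 58 bp, and the 200 bases printed above hold 4 E-box matches.

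**Figure D5:**
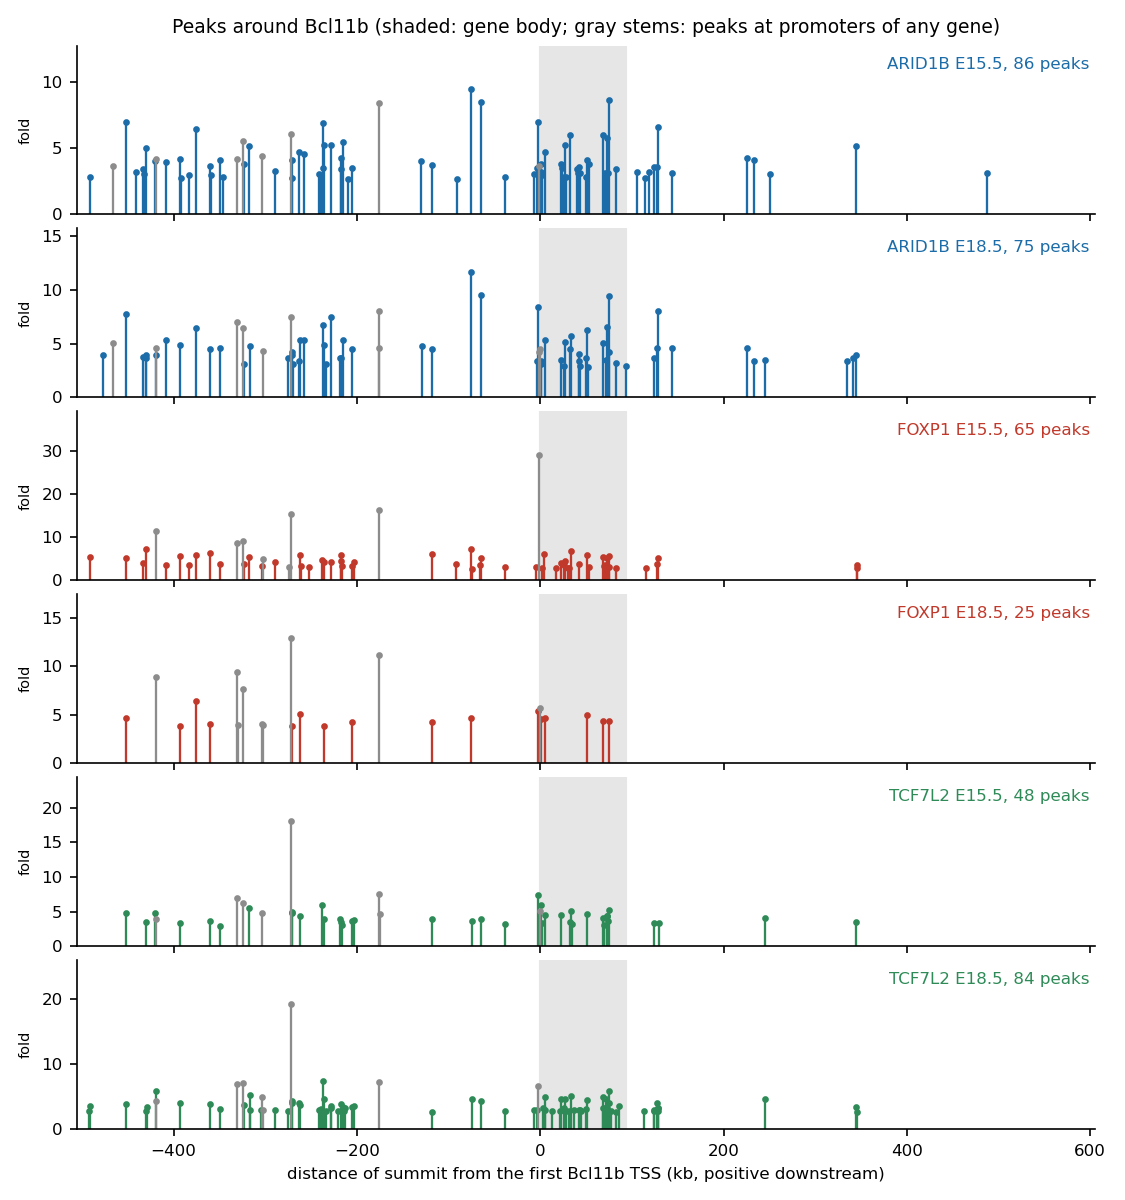
Peaks around Bcl11b by list, as fold enrichment (each panel has its own vertical scale) against distance of the summit from the first TSS in kb along the minus strand. Symbols are as for Bcl11a; the FOXP1 E15.5 proximal peak reaches 29.0, and distal peaks are denser upstream than downstream.

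Around Bcl11b, 12 of 99 distal loci had peaks in all 6 lists, beside 3 of 65 around Bcl11a and 6.51% of 71409 distal loci in the genome. Of the 12, 8 were among the 55 distal loci upstream, 4 among the 27 in the gene body, and 0 among the 17 downstream. The 5 with the highest mean percentile were at +75.1, +51.2, -75.0, -262.5, and -451.7 kb.

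The -75.0 kb locus (chr12:108078207-108079120), intergenic between Bcl11b and Setd3, held the tallest distal ARID1B peaks of this window, 9.44 (7.74 to 11.4) at E15.5 and 11.6 (9.29 to 14.4) at E18.5. FOXP1 was at 7.21 (5.48 to 9.33) and 4.68 (3.24 to 6.56), and TCF7L2 at 3.68 (2.59 to 5.09) and 4.71 (3.42 to 6.32). ARID1B was the tallest at both stages, although at E15.5 its interval overlapped that of FOXP1, and summits of all TRs lay within 136 bp. The intronic +75.1 kb locus (chr12:107927591-107929738) again had ARID1B on top. It was at 8.64 (7.02 to 10.5) and 9.40 (7.30 to 11.9), FOXP1 at 5.70 and 4.38, and TCF7L2 at 5.25 and 5.91, and the ARID1B interval overlapped that of FOXP1 at E15.5 and that of TCF7L2 at E18.5. The +51.2 kb locus (chr12:107951863-107953616), in another intron, was even across the TRs, from 4.10 for ARID1B E15.5 to 6.31 for ARID1B E18.5. Its ARID1B ratio of E15.5 over E18.5 was 0.622 (0.401 to 0.964), lower than at all but 1.29% of distal loci, although its interval includes the median of those loci, 0.895.

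Farther upstream, the -262.5 kb locus (chr12:108265295-108266831) in a Ccdc85c intron ranged from 4.05 (TCF7L2 E18.5) to 5.95 (FOXP1 E15.5). The -451.7 kb locus (chr12:108454747-108455566) in an Eml1 intron ranged from 3.83 (TCF7L2 E18.5) to 7.71 (ARID1B E18.5). Also in Eml1, the -375.3 kb locus (chr12:108378660-108379147) had ARID1B at 6.41 and 6.45 and FOXP1 at 5.82 and 6.44 but no listed TCF7L2 peak at either stage. The tallest distal TCF7L2 peak at E18.5, 7.33 (5.70 to 9.30), was at -237.5 kb (chr12:108240743-108241960) in Ccdc85c, where FOXP1 E18.5 had none. The tallest distal FOXP1 height at E15.5, 7.21 (5.48 to 9.33), was shared by the -75.0 kb locus and by one at -429.7 kb (chr12:108432525-108434168) in Eml1, of which only the latter had no FOXP1 E18.5 counterpart. Distal FOXP1 peaks around Bcl11b therefore remained near 7-fold at most, in contrast to the +293.5 kb locus of Bcl11a.

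The last comparison asked how often all 3 TRs shared a distal locus, a union of overlapping peaks within a stage. At E15.5 this held for 12 of 62 loci around Bcl11a (19.4%) and 25 of 83 around Bcl11b (30.1%), beside 18.1% genome-wide. At E18.5 it held for 3 of 52 (5.77%) and 12 of 81 (14.8%), beside 10.4%. Loci bound by all 3 were thus near the genome's share around Bcl11a at E15.5 and above it around Bcl11b at both stages, with no test of either. With a −log10 p of at least 15, the counts fell to 3 and 4 at E15.5 and to 2 and 0 at E18.5. The genome's share at that threshold was not counted, so these counts cannot be set against it.

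The stages also differed in which distal peaks had a counterpart. Around Bcl11a, FOXP1 had 48 distal peaks at the earlier stage against 7 at the later, and around Bcl11b 57 against 16. Of the E15.5 peaks, 44 of 48 (91.7%) and 44 of 57 (77.2%) overlapped no FOXP1 peak at E18.5, beside 80.1% of all distal FOXP1 peaks at that stage. The reverse held for 0 of 7 and 0 of 16 E18.5 peaks, beside 7.72%. The E15.5 share was thus above the genome's around Bcl11a and near it around Bcl11b, with no test of either. The ratio of E15.5 to E18.5 counts was 6.86 for Bcl11a and 3.56 for Bcl11b, beside 4.04 for all distal peaks. The low background of FOXP1 E18.5 given above, set by its smaller input, moved with this ratio. TCF7L2 went the other way, with 17 and 32 distal peaks around Bcl11a and 40 and 76 around Bcl11b, ratios of 0.531 and 0.526 beside 0.510 for the genome. For ARID1B the counts were 48 and 49, and 78 and 65, ratios of 0.980 and 1.20 beside 1.05. Lists of equal length bring the stage counts close together genome-wide by construction, so they cannot show whether a stage difference remained. With every list shortened to its 24872 peaks of lowest p-value, an alternative added after seeing the data, FOXP1 had 7 distal peaks at either stage around Bcl11a, and 20 at E15.5 against 16 around Bcl11b. TCF7L2 then had 12 against 11 and 27 against 26, and ARID1B 9 against 8 and 21 at either stage. Genome-wide, the distal counts at E15.5 and E18.5 were then 11893 and 11014 for FOXP1, a ratio of 1.08. They were 10674 and 10657 for TCF7L2, and 15492 and 15513 for ARID1B.

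Peaks of ARID1B and TCF7L2 found at a single stage were also counted, in the full lists. For ARID1B they made up 11 of 48 and 25 of 78 distal peaks at E15.5 and 12 of 49 and 8 of 65 at E18.5 around Bcl11a and Bcl11b, beside 25% and 17% genome-wide for the earlier and later stage. The tallest, at -477.4 kb of Bcl11b, reached 3.93 (2.64 to 5.65), below the median of 4.07 for distal ARID1B peaks at that stage, E18.5. For TCF7L2 they made up 2 of 17 and 2 of 40 at E15.5 and 19 of 32 and 40 of 76 at E18.5, beside 7.86% and 56.1% genome-wide, and the tallest, at +27.1 kb in a Bcl11b intron, reached 4.60 (3.33 to 6.20), above the median of 3.28 for distal TCF7L2 peaks at E18.5. Counterparts were not recounted in lists of equal length.

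Promoters of the neighbours varied as well. All 6 of the other protein-coding genes with a TSS in the Bcl11a window had proximal peaks in all 6 lists, as did 6 of 7 in the Bcl11b window, 3110018I06Rik having none, beside 51.8% of all protein-coding genes. The tallest were at Ccdc85c, where TCF7L2 reached 18.1 and 19.3 at the 2 stages, and at Ccnk and Setd3, which share a divergent promoter with FOXP1 at 16.2 and 11.2. Around Bcl11a, FOXP1 at E15.5 was at 14.3 for 0610010F05Rik, 13.5 for the shared promoter of Pus10 (a pseudouridine synthase) and Pex13 (a peroxisomal import factor), 11.3 for Papolg (a poly(A) polymerase), and 10.0 for Rel (an NF-kappaB subunit). The FOXP1 peak of the Bcl11a promoter, 7.97, was the lowest of these, and that of the Bcl11b promoter, 29.0, exceeded every neighbour's. Of genes that are not protein-coding, 4 of 14 around Bcl11a had a proximal peak in at least 1 list (Gm12061, Gm44381, Gm12063, and 4930538E20Rik), and 1 of 7 around Bcl11b (4930478K11Rik), beside 16.3% of 33499 such genes. The 5730522E02Rik, Fancl, and Vrk1 genes, beyond the deserts, lie outside the windows.

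Core motifs were searched on both strands in the 200 bases around each summit, as exact letters. A BCL11 core, TGACCA, lay under 31 of 254 Bcl11a summits (12.2%), in 20 of 75 loci, and under 25 of 383 Bcl11b summits (6.53%), beside 7.01% of all summits. A TCF/LEF core, ATCAAAG, lay under 11 (4.33%) and 14 (3.66%), beside 2.44%. A forkhead core, TGTTTAC, lay under 2 (0.787%) and 8 (2.09%), beside 2.88%, and the E-box under 40 (15.7%) and 88 (23.0%), beside 23.4%. Peaks of several lists at a locus share bases, so these counts are not independent. The FOXP1 E15.5 summit windows at +294 kb and at the Bcl11b promoter held no forkhead core, which says only that these letters were not in those 200 bases.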

How the data were processed

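Cortices of wild-type mice at E15.5 and E18.5 were profiled by ChIP-seq for ARID1B, FOXP1, and TCF7L2 with matched inputs. Per the study's methods and the submitters' processing notes, the authors aligned reads with BWA 0.7.15 to GRCm38 (mm10), kept mapping qualities of at least 30 with SAMtools, compared peaks called per replicate, then merged the replicates' reads and called narrow peaks anew with MACS2 2.2.7 at a q-value of 0.01, an extension of 200 bp, and constant background. The deposited lists give each peak's score, its fold enrichment (a ratio) at the summit, and −log10 of its p-value and q-value as the authors' caller wrote them. Local background was disabled. How duplicate reads were treated was not given in the sources used here.

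Peaks on the main chromosomes were assigned to GENCODE vM21 genes (promoter 2000 bp upstream of any TSS; overlap of at least 1 base) with Python 3.11.15, pandas 2.3.3, NumPy 2.4.6, and SciPy 1.17.1. Reads over summits were recovered from the fold enrichment and p-value, and the recovery was tested on simulated data. Intervals were 95% exact Poisson for heights and exact conditional binomial for stage ratios, and cover counting error only. No test was made, since the lists used were called on merged replicates. Genes named were both members, genes with a TSS in a window and a promoter peak, flanking protein-coding genes, the 3 genes nearest in promoter percentiles, and a list of 9 projection neuron regulators (a further gene planned for it is not reported here). Loci named were promoters, the tallest distal peak of each list, up to 5 distal loci in all 6 lists, and the tallest locus of each TR found at 1 stage only. The members and lists were chosen with earlier results of these data known. Alternatives were stricter peak thresholds, lists of equal length, other flanks, promoters, and motif windows.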

Additional observations from a re-analysis of the deposited data

How the results depend on the processing

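Counts depended most on the peak threshold. With a −log10 p of at least 15, 72 peaks remained around Bcl11a and 115 around Bcl11b, and with a fold enrichment of at least 4 in every list, 108 and 183. With every list shortened to the 24872 peaks of the shortest, by p-value, 96 and 170 were left. Around Bcl11b, a flank of 250 kb gave 244 peaks and the stretch between neighbouring protein-coding genes 186, while for Bcl11a these gave 211 and 285. Proximal peaks at Bcl11b were found in 3 lists at the stricter p-value. Distal loci of all 3 TRs at E15.5 numbered 3 around Bcl11a and 4 around Bcl11b at the stricter p-value, and 5 and 11 with lists of equal length. At E18.5 none (0) was left around Bcl11b at the stricter p-value. Member summits with a match to any of the core motifs numbered 206 in 200 bp and 122 in 100 bp. Stricter thresholds, shortened lists, and smaller windows keep fewer peaks or bases by construction. The shares of all genes and of all distal loci at the stricter p-value were not counted. The other 28 alternatives of these results stayed within 1.5 times the reported count. From the fold enrichments as listed, an alternative added after seeing the data, the FOXP1 ratio was 5.42 at the Bcl11a +293.5 kb locus and 5.08 at the Bcl11b promoter. No paired analysis was possible because the lists used here were called on merged replicates, and no replicate could be left out for the same reason.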

Other observations

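Distal loci were also sorted by the combination of TRs they held over both stages. Of 65 distal loci around Bcl11a, 17 had peaks of ARID1B alone and 17 of all 3 TRs (26.2% each, beside 31.9% and 25.6% genome-wide), and 13 had FOXP1 alone (20%, beside 11.8%). Of 99 around Bcl11b, 34 had all 3 TRs (34.3%), 27 ARID1B alone (27.3%), and 15 TCF7L2 alone (15.2%, beside 7.88%), while 5 had ARID1B and FOXP1 without TCF7L2 (5.05%, beside 16.8%). None of these shares was tested.

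Base composition was higher in G and C around Bcl11b. The median GC content of the 200 bases around distal summits was 54% for Bcl11b, 49% for Bcl11a, and 49% for all distal peaks. For proximal summits of either window it was 67.5% and 62%, beside 63.5%.

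Peaks as tall and as wide as those of FOXP1 at E15.5 in these windows were few. Only 6 distal FOXP1 E15.5 peaks, the Bcl11a +293.5 kb peak among them, reached at least 80% of its fold enrichment, with a median width of 1309 bp, and 2 of the 6 were at least as wide as it, again counting itself. For the Bcl11b promoter peak, 338 proximal peaks, itself included, reached at least 80% of its height, with a median width of 1206.5 bp, and 3 of the 338 were at least as wide.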
